A study of Saccharomyces cerevisiae CEN.PK113-7D with 6 samples.

Results

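The 42 nuclear genes described here encode assembly factors of the mitochondrial respiratory complexes and activators of single mitochondrial mRNAs in the budding yeast Saccharomyces cerevisiae. They were chosen by name, as a fixed list of assembly factors and mRNA-specific activators, and not by a cut on their measured values. Earlier results of these data were known when the list was chosen. All 42 of 42 listed genes were found among the 5449 genes of the array, each with 1 probe set of its own. Transcript levels were measured on 6 GeneChip arrays with biotin-labelled total RNA of the laboratory strain CEN.PK113-7D, 3 of chemostat cultures (replicates 4, 8 and 9) and 3 of batch cultures (replicates 1, 2 and 3), all grown on glucose. A chemostat is fed and drained continuously and holds cells at a constant growth rate, whereas a batch culture is given its medium once. The series was made to set arrays beside sequencing of the same RNA, and the comparison its arrays allow is chemostat against batch. The labels place sampling at steady state for all samples, and the sources used here give no dilution rate, no limiting nutrient and no glucose level of the batch medium. Whether replicates came from separate cultures is not stated either. The p-values therefore rest on a spread between arrays that may be only technical.

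Complexes III and IV and ATP synthase are built from subunits of nuclear and mitochondrial origin. The mitochondrial genome encodes their membrane cores, and the translation of each of its mRNAs depends on dedicated nuclear proteins that bind the mRNA or its leader. Other nuclear proteins insert heme and copper, hold the nascent core subunits and chaperone the later steps, without being part of the finished enzyme. Glucose represses respiration in this yeast, and subunit genes are classic targets of that repression and of the Hap activators that relieve it.

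Values are log2 signals of each gene's probe set, a change is the chemostat mean minus the batch mean, and each group has n = 3 arrays. Between genes only changes are compared, because probe sets differ in brightness for reasons other than transcript number. In bulk RNA, fewer cells with a transcript and less of it per cell cannot be told apart. Median signals over all genes were 7.95 to 7.97 on the 6 arrays. The array also carries probe sets of the fission yeast S. pombe, whose 95th percentile, 5.93, was used as background. STE2, the receptor gene of mating type a cells, was above it at 8.88 ± 0.37 in chemostat and 11.003 ± 0.09 in batch (SD), and STE3, that of alpha cells, was above it too, at 7.13 ± 0.09 in chemostat and 6.60 ± 0.11 in batch. MFA1 and MFA2, also genes of a cells, were above it as well. MFA1 had 9.90 ± 0.41 in chemostat and 9.94 ± 0.06 in batch, and MFA2 9.85 ± 0.36 and 11.18 ± 0.06. MFALPHA1 and MFALPHA2, of alpha cells, were not measured here. Pearson correlations between arrays, across the 42 members, which are not independent replicates, lay between 0.993 and 0.999 within groups and between 0.884 and 0.899 across groups. Over all genes they lay between 0.994 and 0.999 within groups and between 0.815 and 0.853 across groups. Batch replicate 3 gave 3 of the members a value more than 0.25 away from the average of its fellow batch arrays, batch replicate 1 gave 1, and the other arrays gave 0.

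The assembly and activation factors moved in both directions, and mostly by little. In limma's moderated test, adjusted by Benjamini-Hochberg over all 5449 genes at a threshold of 0.05, 15 members were higher in chemostat, 19 were lower and 8 did not pass. Over all genes 78.4% were called, 33.6% higher and 44.8% lower, so the members' shares of 35.7% and 45.2% lay near that background. The 15 higher members include ATP10, which was below background in both groups. The members' median change was -0.07, beside -0.06 over all genes. The median size of change, regardless of sign, was 0.24 for the members and 0.35 for all genes. Of the members, 2 were called and rose 2-fold or more, CBP4 and COX20, where 8.18% of all genes did; 0 fell by that much, where 4.37% of all genes did. Values of the 2 groups did not overlap for 36 members, 17 with chemostat above and 19 with chemostat below, against 35.3% and 46.4% of all genes (81.7% in either direction).

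**Figure D1:**
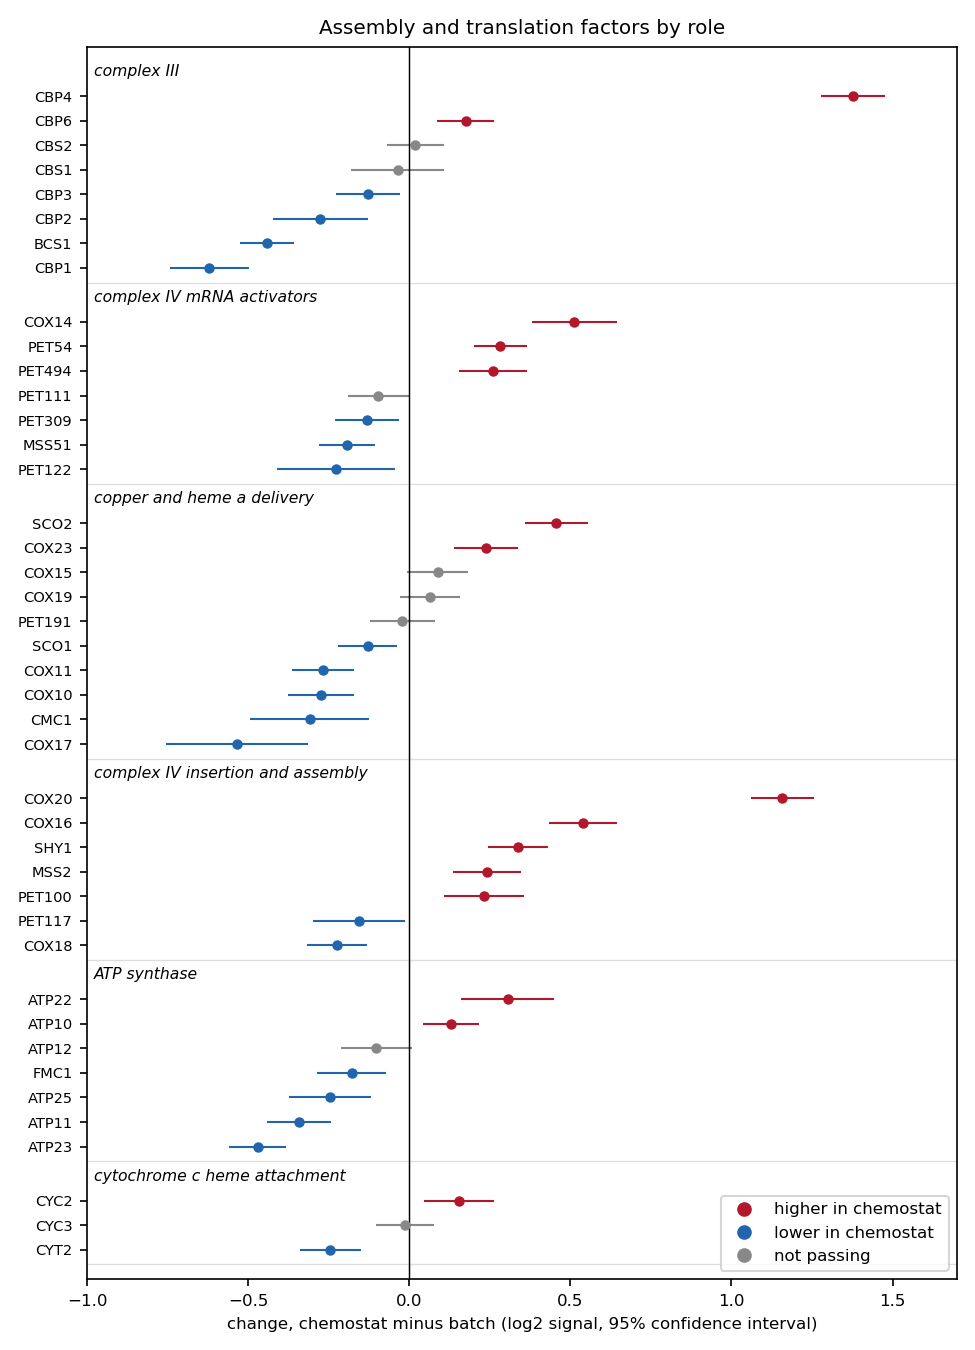
Change of each of the 42 members, chemostat minus batch, in log2 signal on the horizontal axis, with its 95% confidence interval from limma and n = 3 arrays per group. Rows are grouped by role, red points were called higher, blue points lower and grey points did not pass; CBP4 (1.38) and COX20 (1.16) lie far to the right of the others, which all lie between -0.62 and 0.54.

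The subunits that these factors assemble behaved otherwise. Of 32 nuclear-encoded structural subunits of complexes III and IV and ATP synthase, 31 were higher in chemostat, where 33.6% of all genes were. By limma 0 were lower (also 0 at an unadjusted p under 0.05), where 44.8% of all genes were, and 1 did not pass. The subunits' median change was 0.66. All 9 of complex III and all 14 of ATP synthase were higher, as were 8 of 9 of complex IV. The largest rises were 0.83 for QCR10 and 0.75 for RIP1, the Rieske iron-sulfur protein, in complex III, 0.79 for COX7 and 0.76 for COX9 in complex IV, and 0.93 for ATP7 and 0.84 for ATP14 in ATP synthase. The exception was COX5B, the hypoxic isoform of subunit V, with 6.30 ± 0.03 in chemostat and 6.39 ± 0.14 in batch (SD, adjusted p = 0.252). The signal of COX5B was close to background in both groups. Among the genes of the Hap complex, which activates respiratory genes, HAP4, its regulatory subunit, rose by 1.02 (SE 0.11), HAP2 by 0.33 (SE 0.054) and HAP5 by 0.24 (SE 0.049), and HAP3 changed by 0.04 (adjusted p = 0.513). The difference between the members' median and that of the subunits was not tested, since members of a list are not replicates. The genes that the mitochondrial genome gives to these complexes, the clients of the activators below, were not analysed here.

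**Figure D2:**
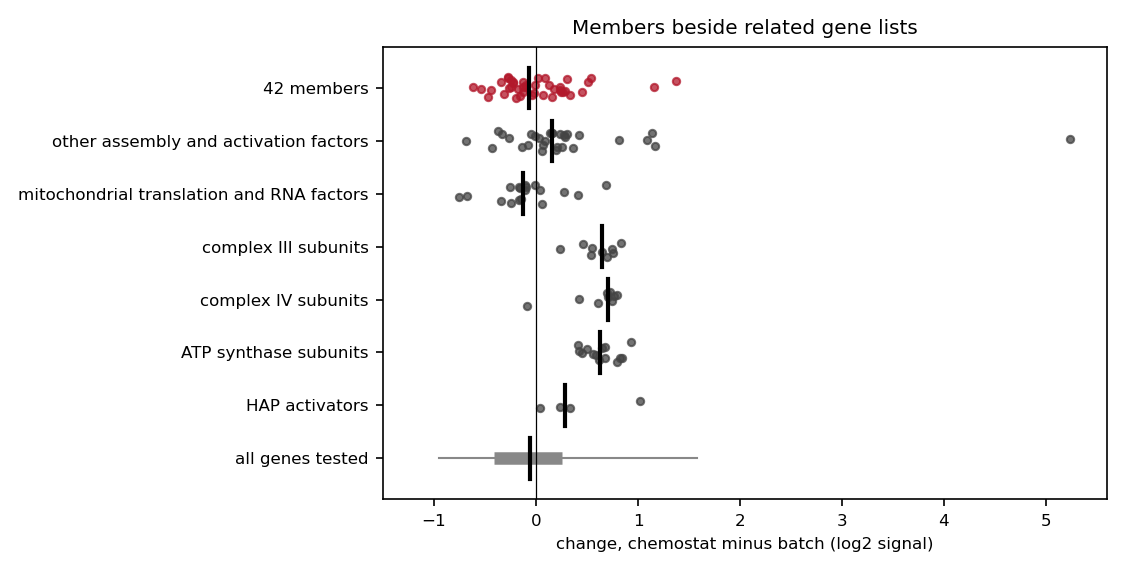
Change of each gene, chemostat minus batch in log2 signal, in the 42 members (red) and in related lists (grey points), with a black bar at each median. The lowest row gives all 5449 genes, the thick bar from the 25th to the 75th percentile and the thin line from the 5th to the 95th; the medians of the 3 subunit lists lie between 0.63 and 0.70, and that of the members at -0.07. The point at the far right is NCA3, which was below background in batch.

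Of the 8 genes that serve cytochrome b and complex III, 2 rose, 4 fell and 2 did not pass. Their shares, 25% higher and 50% lower, stand beside 33.6% and 44.8% of all genes. CBP4, an inner membrane protein needed to assemble cytochrome b after its synthesis, stood at 9.05, 9.08 and 9.09 in chemostat, against 7.75, 7.70 and 7.64 in batch. Its groups lay far apart, and the rise of 1.38 (SE 0.043, adjusted p = 4.42e-08), or 2.6-fold, was the largest of all members. CBP3 and CBP6 form a complex at the mitochondrial ribosome that promotes translation of the cytochrome b mRNA, COB, and receives its product. CBP6 had 8.45, 8.46 and 8.46 in chemostat, against 8.32, 8.25 and 8.27 in batch, and rose by 0.18 (SE 0.038). CBP3 had 8.42, 8.46 and 8.46 in chemostat, against 8.62, 8.60 and 8.51 in batch, and fell by 0.13 (SE 0.043, adjusted p = 0.023). The pair thus moved in opposite directions, by small amounts, and the CBP3 call ended without batch replicate 1 (-0.11), batch replicate 2 (-0.12) or any of the chemostat replicates 4 (-0.12), 8 (-0.13) and 9 (-0.13), and after quantile normalization or centring on S. pombe (-0.10 each). Tested directly, the change of CBP3 minus that of CBP6 was -0.30 (SE 0.039, adjusted p = 0.000446 over 16 pairs).

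Upstream of that step, the genes acting on the COB transcript itself were lower or did not pass. CBP1, which protects the COB mRNA from degradation and is needed for its translation, had 6.28, 6.31 and 6.30 in chemostat, against 6.96, 6.81 and 6.98 in batch. All chemostat values lay below all batch values. The fall of CBP1 was the largest among the members (-0.62, SE 0.053, adjusted p = 1.01e-05). Its chemostat signal is close to background, and the size of the change depended on the processing. The change was -0.83 after quantile normalization and -0.80 with background subtraction. CBP2, a splicing factor for a group I intron of the COB transcript, had 6.89, 6.91 and 7.00 in chemostat, against 7.28, 7.07 and 7.27 in batch (-0.28, SE 0.064, adjusted p = 0.00419). After quantile normalization the change of CBP2 was -0.39. CBS1 and CBS2, the translational activators of the COB leader, did not pass: CBS1 changed by -0.04 (95% interval -0.18 to 0.11; -0.15 after quantile normalization, also not called) and CBS2 by 0.02 (-0.07 to 0.11). Their arrays overlapped between groups. BCS1, the AAA protein that moves the folded Rieske protein across the inner membrane as the last catalytic subunit, had 7.83, 7.84 and 7.84 in chemostat, against 8.30, 8.27 and 8.26 in batch. It fell by 0.44 (SE 0.036, adjusted p = 7.99e-06), while the gene of its client, RIP1, rose by 0.75 (SE 0.048).

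**Figure D3:**
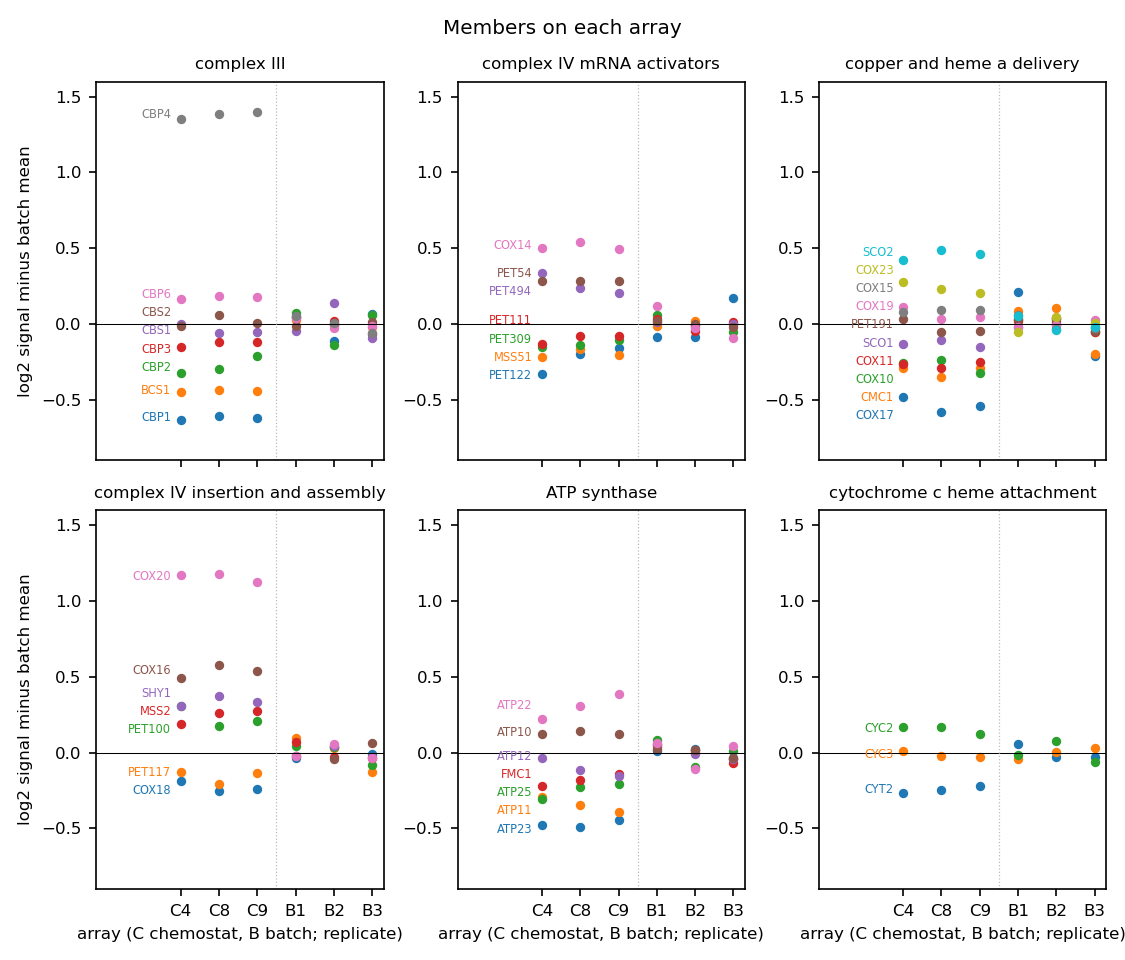
Log2 signal of each member on each array, less that gene's mean over the batch arrays, in 6 panels by role. The chemostat arrays (C4, C8 and C9) are left of the dotted line and the batch arrays (B1, B2 and B3) right of it, colours mark genes within a panel, and names stand near their chemostat values; the batch points of COX17 and CMC1 are the most spread in their panel.

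The genes that serve the mRNAs of the core subunits of complex IV divided evenly, with 3 higher, 3 lower and 1 not passing. These are 42.9% each way, beside 33.6% higher and 44.8% lower over all genes. For COX1, PET309 binds the mRNA and MSS51 activates its translation and then binds the new protein. MSS51 had 9.004, 9.06 and 9.02 in chemostat, against 9.21, 9.24 and 9.22 in batch, and fell by 0.19 (SE 0.038, adjusted p = 0.0015). PET309 had 6.47, 6.48 and 6.52 in chemostat, against 6.68, 6.61 and 6.57 in batch, and fell by 0.13 (SE 0.043, adjusted p = 0.0223). Its signal is close to background, and its value depended on the scaling: -0.36 after quantile normalization, and -0.10, without a call, when arrays were centred on S. pombe. Leaving out single arrays also ended the PET309 call, at -0.10 without batch replicate 1, -0.12 without chemostat replicate 4 and -0.13 without chemostat replicate 8. COX14, a small membrane protein that holds MSS51 with newly made Cox1 and so couples its synthesis to assembly, moved the other way. It had 9.37, 9.40 and 9.36 in chemostat, against 8.98, 8.83 and 8.77 in batch, a rise of 0.51 (SE 0.057, adjusted p = 5.33e-05) with no overlap. PET111, the activator of the COX2 mRNA, had 7.06, 7.11 and 7.11 in chemostat, against 7.22, 7.14 and 7.20 in batch (-0.10, adjusted p = 0.0577). It did not pass, though its groups did not overlap, and it passed after quantile normalization (-0.18), background subtraction (-0.12) or without batch replicate 2 (-0.12).

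The COX3 mRNA is activated by a complex of Pet54, Pet122 and Pet494, and the 3 genes did not move as a unit. PET54 had 8.94 on every chemostat array, against 8.68, 8.66 and 8.64 in batch, and rose by 0.28 (SE 0.036, adjusted p = 0.00012). PET494 had 7.81, 7.71 and 7.67 in chemostat, against 7.48, 7.46 and 7.46 in batch, and rose by 0.26 (SE 0.046, adjusted p = 0.000845). The changes of PET54 and PET494 were not told apart (difference 0.02, 95% interval -0.09 to 0.13). PET122 had 6.39, 6.51 and 6.56 in chemostat, against 6.63, 6.63 and 6.89 in batch, and fell by 0.23 (SE 0.079, adjusted p = 0.0279). Batch replicate 3 stood above the other batch arrays for PET122, and without it the change was -0.14 and not called. That call also ended without chemostat replicate 4 (-0.18) or 8 (-0.24) and with background subtraction (-0.34), while quantile normalization gave -0.43. The difference in change passed for PET54 minus PET122 (0.51, SE 0.09, adjusted p = 0.00179) and for PET122 minus PET494 (-0.49, SE 0.1, adjusted p = 0.00394). Both calls held under all 10 alternatives tried for pairs. Among these, the mean of probe sets could not change a pair, since every member has a single probe set.

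Copper and heme a are the redox cofactors of complex IV. Of the 10 genes that deliver them, or that encode twin cysteine proteins of the intermembrane space needed for the same enzyme, 2 rose, 5 fell and 3 did not pass. This is 20% higher and 50% lower, where all genes had 33.6% and 44.8%. COX17, the copper chaperone that hands copper on to Sco1 and Cox11, had 8.98, 8.89 and 8.93 in chemostat, against 9.68, 9.46 and 9.26 in batch. The batch arrays were spread (SD 0.21) but all lay above the chemostat arrays (SD 0.047), and COX17 fell by 0.53 (SE 0.095, adjusted p = 0.000964). CMC1, a twin cysteine protein tied to copper delivery, had 8.72, 8.66 and 8.72 in chemostat, against 9.10, 9.12 and 8.82 in batch (-0.31, SE 0.079, adjusted p = 0.00685). Batch replicate 3 was the lowest batch array for both genes. The related COX23 rose by 0.24 (SE 0.043, adjusted p = 0.00101), COX19 changed by 0.06 (95% interval -0.03 to 0.16) and PET191 by -0.02 (-0.12 to 0.08). The change of COX17 minus that of COX23 was -0.77 (SE 0.11, adjusted p = 0.00078), minus that of COX19 -0.60 (SE 0.11, adjusted p = 0.00187) and minus that of CMC1 -0.22 (SE 0.063, adjusted p = 0.0131).

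SCO1 and SCO2 are paralogs, of which Sco1 is needed to metallate the CuA site of Cox2 and Sco2 is dispensable for respiration. SCO2 had 7.77, 7.83 and 7.81 in chemostat, against 7.40, 7.31 and 7.33 in batch, and rose by 0.46 (SE 0.042, adjusted p = 1.75e-05). SCO1 had 8.04, 8.07 and 8.02 in chemostat, against 8.15, 8.22 and 8.16 in batch, and fell by 0.13 (SE 0.039, adjusted p = 0.0155). The groups of neither gene overlapped. The SCO1 call ended without batch replicate 2 (-0.11) or chemostat replicate 9 (-0.12). The difference between the changes of SCO1 and SCO2 was -0.59 (SE 0.049, 95% interval -0.70 to -0.47, adjusted p = 7.85e-05). That difference held under all 10 alternatives, of which the mean of probe sets could not change it.

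The remaining genes of this route are COX11, which serves the CuB site of Cox1, and the enzymes of heme a synthesis. COX11 had 7.59, 7.56 and 7.60 in chemostat, against 7.87, 7.89 and 7.80 in batch, and fell by 0.27 (SE 0.041, adjusted p = 0.000399). COX10, which makes heme O from heme B, had 7.92, 7.95 and 7.86 in chemostat, against 8.21, 8.21 and 8.13 in batch, a fall of 0.27 (SE 0.044, adjusted p = 0.000534). COX15, which turns heme O into heme A, had 9.48, 9.49 and 9.50 in chemostat, against 9.46, 9.37 and 9.37 in batch (0.09, adjusted p = 0.0802). Consecutive enzymes of this short pathway therefore differed in their change, by -0.36 for COX10 minus COX15 (SE 0.046, adjusted p = 0.000446). COX15 passed as higher after quantile normalization (0.10), centring on S. pombe (0.12), background subtraction (0.09), or without batch replicate 1 (0.12).

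Insertion and later assembly of complex IV was the role in which rises prevailed, with 5 genes higher and 2 lower and a median change of 0.24. Its shares were 71.4% higher and 28.6% lower, against 33.6% and 44.8% of all genes. Whether this split differs from that of the other roles was not tested. COX20, the chaperone of newly made Cox2 that presents it for trimming and copper insertion, had 9.13, 9.14 and 9.08 in chemostat, against 7.94, 8.01 and 7.92 in batch. The rise of 1.16 (SE 0.042, adjusted p = 9.97e-08), or 2.23-fold, was second to that of CBP4. COX16, which binds Cox1 intermediates, had 8.26, 8.35 and 8.31 in chemostat, against 7.74, 7.73 and 7.83 in batch (0.54, SE 0.045, adjusted p = 9.41e-06). SHY1, the homolog of human SURF1 that acts on Cox1 as its heme is added, had 7.74, 7.80 and 7.76 in chemostat, against 7.41, 7.47 and 7.40 in batch (0.34, SE 0.041, adjusted p = 8.98e-05). None of these groups overlapped. MSS2, needed to export the Cox2 tail, rose by 0.24 (SE 0.046), and PET100, which joins a subassembly of small subunits, rose by 0.23 (SE 0.053).

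COX18, the Oxa1-related translocase that exports the same Cox2 tail, went the other way. It had 7.62, 7.55 and 7.57 in chemostat, against 7.77, 7.84 and 7.80 in batch, a fall of 0.23 (SE 0.04, adjusted p = 0.000972). PET117, an assembly factor of the same enzyme, had 7.48, 7.40 and 7.47 in chemostat, against 7.70, 7.64 and 7.48 in batch. It was the only called member whose groups overlapped (-0.16, SE 0.062, adjusted p = 0.046), and the call ended without any single array other than batch replicate 3: -0.11 without batch replicate 1, -0.14 without batch replicate 2, and -0.17, -0.13 and -0.17 without chemostat replicates 4, 8 and 9. The PET117 call also ended with arrays centred on the gene median (-0.16), on S. pombe (-0.13) or with background subtraction (-0.19).

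Among the 7 genes that serve ATP synthase, 4 were called lower, 2 were called higher and 1 missed the threshold. Lower calls made up 57.1% and higher calls 28.6%, where all genes had 44.8% and 33.6%. Of the 2 called higher, ATP10 was below background in both groups. ATP23, a metalloprotease that trims the Atp6 precursor and helps assemble it, had 7.63, 7.61 and 7.66 in chemostat, against 8.12, 8.13 and 8.07 in batch, and fell by 0.47 (SE 0.038, adjusted p = 7.94e-06). ATP11, the chaperone of the beta subunit of F1, had 8.82, 8.77 and 8.73 in chemostat, against 9.15, 9.12 and 9.07 in batch, and fell by 0.34 (SE 0.043, adjusted p = 0.00012). Its counterpart for the alpha subunit, ATP12, had 8.80, 8.72 and 8.69 in chemostat, against 8.89, 8.83 and 8.80 in batch (-0.10, adjusted p = 0.078). ATP12 overlapped by a narrow margin and passed without chemostat replicate 4 (-0.13), and the change of ATP11 minus that of ATP12 was -0.24 (SE 0.033, adjusted p = 0.000541). FMC1, which supports F1 assembly at high temperature, fell by 0.18 (SE 0.046).

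The mRNA-specific factors of ATP synthase parted. ATP22, the translational activator of the ATP6 mRNA, had 6.97, 7.06 and 7.14 in chemostat, against 6.81, 6.64 and 6.79 in batch, and rose by 0.31 (SE 0.062, adjusted p = 0.00205; 0.16 after quantile normalization). ATP25, which stabilises the mRNA of OLI1, the gene of Atp9, had 7.62, 7.70 and 7.72 in chemostat, against 8.01, 7.83 and 7.93 in batch, and fell by 0.25 (SE 0.055, adjusted p = 0.00347). Their groups did not overlap, and the change of ATP22 exceeded that of ATP25 by 0.55 (SE 0.038, adjusted p = 4.67e-05). ATP10, which helps Atp6 meet the Atp9 ring, was called higher at 0.13 (adjusted p = 0.0125), but its means of 5.46 in chemostat and 5.33 in batch were both below background. Its change turned to -0.01 after quantile normalization and lost its call without chemostat replicate 8 (0.12). No change in the level of ATP10 is read from it. With genes below background in both groups left out, 14 members were higher and 19 lower.

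**Figure D4:**
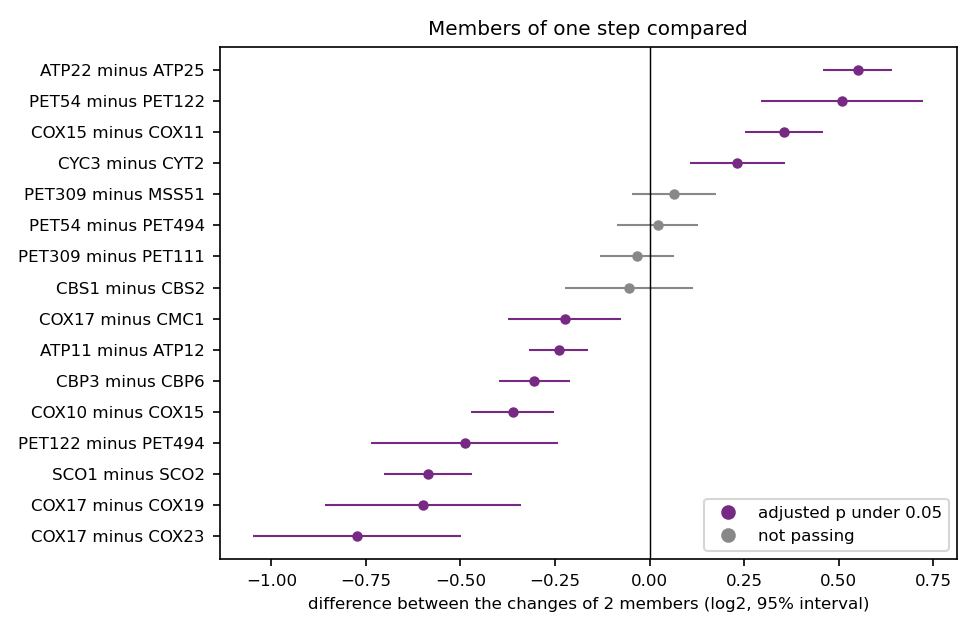
Difference between the changes of 2 members that serve the same or a neighbouring step, first gene minus second, in log2 units with 95% confidence intervals from limma on the per-array differences (n = 3 arrays per group). Purple points passed an adjusted p of 0.05 over the 16 pairs and grey points did not; COX17 minus COX23 lies lowest at -0.77 and ATP22 minus ATP25 highest at 0.55.

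Attachment of heme to cytochromes c and c1 involved 3 genes with 3 outcomes. CYT2, the heme lyase of cytochrome c1, had 8.31, 8.33 and 8.35 in chemostat, against 8.63, 8.55 and 8.55 in batch, and fell by 0.24 (SE 0.041, adjusted p = 0.000692). CYC3, the heme lyase of cytochrome c, changed by -0.01 (95% interval -0.10 to 0.08), with overlapping arrays. CYC2, a flavoprotein that assists cytochrome c maturation, rose by 0.15 (SE 0.047, adjusted p = 0.0158), a call that ended without chemostat replicate 8 (0.15 there as well). The change of CYC3 exceeded that of CYT2 by 0.23 (SE 0.053, adjusted p = 0.00513). Of their substrates, CYT1, cytochrome c1, rose by 0.70 (SE 0.044), and CYC7, the minor cytochrome c, rose by 1.40 (SE 0.079). CYC1, the major cytochrome c, changed by 0.09 (adjusted p = 0.23). The batch signals of CYC7 (6.20, 6.06 and 5.98) were close to background, so the size of its rise is less certain.

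In all, 12 of the 16 pairs compared differed in their change. Over all genes 78.4% were called, and the share for gene pairs in general was not computed. The count is therefore not read as a trait of these steps. Some genes stand in several pairs, so the pairs are not separate results. The 4 that did not pass were CBS1 and CBS2 (-0.05, 95% interval -0.22 to 0.11), PET54 and PET494, PET309 and MSS51 (0.06, -0.05 to 0.18) and PET309 and PET111 (-0.03, -0.13 to 0.06). These intervals bound the differences and do not show equal changes. All 4 values depended on the scaling, and those after quantile normalization are in the closing part.

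Other factors of the same kind, outside the 42, leaned more to rises. Of 30 further assembly and activation genes, 17 were higher, 5 lower and 8 did not pass, with a median change of 0.16. That is 56.7% higher and 16.7% lower, where all genes had 33.6% and 44.8%. NCA3, which acts with NCA2 on the expression of the ATP6 and ATP8 transcript, was below background in batch (5.51 ± 0.13) and at 10.74 ± 0.11 in chemostat (SD), at least 27.4-fold higher when its batch signal is held at background. CMC4, another twin cysteine protein, rose by 1.17 (SE 0.082). OXA1, the insertase for mitochondrially made membrane proteins, fell by 0.69 (SE 0.042), and MZM1, a chaperone of the Rieske protein, fell by 0.43 (SE 0.04), as did BCS1 of the same step. Among 18 general factors of mitochondrial translation, transcription and RNA processing, 3 were higher, 8 lower and 7 did not pass (median -0.13). The share called lower, 44.4%, lay near the 44.8% of all genes, and 16.7% were called higher, beside 33.6% of all genes. MSS116, an RNA helicase for intron splicing, fell by 0.76 (SE 0.1) and MRS1, a splicing cofactor, fell by 0.68 (SE 0.05), whereas MSS18, another splicing factor, rose by 0.69 (SE 0.047) and RPO41, the mitochondrial RNA polymerase, rose by 0.41 (SE 0.07). That the members leaned less to rises than the further genes was not tested.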

How the data were processed

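Log2 signals of 10928 probe sets were used as deposited; the authors made them with PLIER, per the submitters' processing notes, whose version, background step and scaling between arrays the sources used here do not give. The log scale and its base were inferred from the values (4.95 to 13.3). Probe sets were named through GEO's platform annotation and a reference gene table, which gave 5498 S. cerevisiae and 1746 S. pombe probe sets; the brightest stood for each of 47 genes with several. The number of arrays limits the precision.

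Chemostat was compared with batch, without covariates, in limma 3.58.1 (R 4.3.3; lmFit, eBayes, two-sided), Benjamini-Hochberg adjusted over all genes. Pairs were tested by limma on per-array differences, adjusted over 16 pairs. The code was tested on simulated data. A bound sets the bright group against the dim group, each dim array held at its S. pombe percentile where the gene was below it. Alternatives changed scaling, background, filter, variance model, probe set choice, threshold and replicates. Members, lists, pairs and tests were chosen with earlier results of these data known. All members may be named. Of other lists, those with the 2 largest called changes each way and all HAP genes may be named. The STE and MF genes serve as a check of mating type. Other names (CYT1, both CYC genes, COX5B) were chosen after their values were seen. Promoter and protein sequences were not analysed here.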

Additional observations from a re-analysis of the deposited data

How the results depend on the processing

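Under the 15 alternatives run for member changes, 28 of the 42 members kept their direction and their side of the threshold, and 12 of 16 pairs did under the 10 run for pairs. All 42 members have 1 probe set each. The alternatives of probe set choice therefore could not move any member's change or any pair's difference. The count of members higher was 13 to 16 and that of members lower 15 to 18 over the arrays left out in turn; without batch replicate 1 and chemostat replicate 4 together, an alternative added after the data were seen, they were 15 and 16. With limma's treat, which asks for more than a 1.5-fold change, 0 members were lower, also at an unadjusted p under 0.05. In eBayes 19 were lower at an adjusted p under 0.05. Higher under treat were 2 members and 9 subunits. The count of 31 subunits higher was the same under every other setting tried. The member median, -0.07, was -0.092 after quantile normalization, -0.038 with S. pombe centring and -0.097 without dim genes, and ranged from -0.086 to -0.052 over the arrays left out; the median of all genes was -0.12 after quantile normalization. Changes near 0 turned sign for CBS2 (-0.010 after quantile normalization and -0.0014 to 0.034 over the arrays left out), CYC3 (0.0017 after quantile normalization, 0.015 with S. pombe centring, -0.044 to 0.0040 over the arrays left out, singly or as the pair named above), PET191 (0.0063 with S. pombe centring), CBS1 (-0.15 after quantile normalization, adjusted p = 0.052, and -0.083 to 0.033 over the arrays left out) and ATP10 (-0.010 after quantile normalization). Among pairs, quantile normalization turned PET309 minus MSS51 to -0.16 (adjusted p = 0.00865) and made PET309 minus PET111 pass at -0.18. PET54 minus PET494 was 0.068 after quantile normalization, -0.017 with background subtraction and -0.0074 to 0.061 over the arrays left out, and CBS1 minus CBS2 was -0.14 after quantile normalization and -0.11 to 0.014 over the arrays left out. Causes were not tested. No paired analysis was possible because chemostat and batch replicates share no number. Signals near background (ATP10, PET309, PET122, CBP1) can compress changes, and the changes of these genes also depended on the scaling. Quantile normalization moved each of them downward, CBP1 to -0.83, PET309 to -0.36, PET122 to -0.43 and ATP10 to -0.010. The same scaling also moved other members downward, among them CBP2 to -0.39 and ATP22 to 0.16. The 6 arrays limit the precision.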
